A study of Homo sapiens with 12 samples.

Results

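The human genome carries its largest collection of C2H2 zinc finger genes on chromosome 19, most of them in tandem clusters of related genes. Of the 26485 genes in the count tables, 249 had a symbol made of ZNF and a number (with or without a final letter) and lay on chromosome 19 alone, and these 249 genes are described here. ZNF85, ZNF100, ZNF43 and ZNF676 were also listed on alternative scaffolds and were not members by this rule. The 276 ZNF genes of other chromosomes served as the comparison group. The cells were OVCAR8, a long-established line from human ovarian cancer, cultured in RPMI with serum. They received vehicle (control), 150 nM EC359, an inhibitor of the receptor of leukemia inhibitory factor, 100 nM trametinib, an inhibitor of the kinase MEK, or EC359 and trametinib together (combination group), in each case for 7 h. Each of the 4 conditions had 3 libraries, and since the labels do not say whether these came from separate cultures, p-values measure the spread between libraries, which may be technical. All libraries came from 1 cell line.

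Zinc finger proteins of this family bind DNA through tandem fingers, each a short stretch in which cysteines and histidines hold a zinc ion. Many also carry a KRAB box near the amino end, which binds TRIM28 (KAP1). TRIM28 in turn brings the histone methyltransferase SETDB1, the HP1 proteins and the NuRD deacetylase complex to the bound site, and the site is silenced by methylation of histone H3 on lysine 9. KRAB zinc finger proteins are best known for silencing transposable elements, and as a family they tend to be expressed at low levels.

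The reads counted on genes numbered between 24790392 and 32467283 per library, and 14865 genes passed the filter on low counts. CPM stands for counts scaled to the same normalised library size, so a value is relative to the RNA of the whole library, and fewer cells expressing a gene cannot be told apart from less RNA per cell. The biological coefficient of variation within conditions was 3.95%. The keratins KRT8 and KRT18, VIM, PAX8 and MSLN were expressed, while the ovarian cancer marker MUC16 was at 0 in control and EMX2, SOX17, KRT19 and CDH1 were at or under 0.149 CPM there. Of the 3 leukocyte markers, PTPRC and CD3E had no count in any library, while CD68 was expressed in all of them and the list summed to 47.9 to 60.6 CPM. The fibroblast marker DCN had no count in any library. The 4 fibroblast markers summed to 429 to 449 CPM in control and 235 to 248 CPM with EC359. They summed to 538 to 545 CPM with trametinib and 341 to 361 CPM in the combination group. Nearly all of each sum was COL1A1. PDGFRB of the same list did not follow it, at 13.3 CPM in control, 15.9 CPM with EC359, 21.6 CPM with trametinib and 25.8 CPM in the combination group. LUM averaged at most 0.935 CPM in any condition. The part of these changes in the results was not tested.

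Of the 249 genes, 234 passed the filter and 15 did not: ZNF556, ZNF560, ZNF812, ZNF69, ZNF486, ZNF826P, ZNF729, ZNF99, ZNF536, ZNF233, ZNF541, ZNF175, ZNF534, ZNF154 and ZNF132. None of these 15 averaged more than 0.186 CPM over the libraries. The level of the 234 genes had a median of 4.90 CPM, with quartiles at 2.63 and 9.89 CPM, against 10.3 CPM for ZNF genes of other chromosomes and 20.7 CPM for all genes tested. A coding transcript was available for 240 members. A KRAB box was recognised in 206 of these (85.8%), compared to 129 of 264 ZNF genes of other chromosomes (48.9%). The number of fingers ranged from 0 to 36 with a median of 12. Members with a KRAB box had a median level of 4.69 CPM, and those without one had 14.4 CPM. Related members share long runs of sequence. The authors divided reads with several placements, or overlapping several genes, among the genes concerned, which leaves values that are not whole. Which kind of read gave the fractions was not tested. For 187 of the 234 members the deposited values were whole in at least 90% of libraries.

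The finger itself is shown for the 6 members with the largest decreases and the 2 with the largest increases in the combination group, because the frame they share and the bases by which they differ can be read from it. Each line gives 84 bases of coding sequence, 1 finger with its linker, from GENCODE 29 transcripts on hg38, 5′ to 3′ on the gene's strand, with the codons of the 2 cysteines and 2 histidines in capitals. The stretches lie at chr19:34943666-34943749 (plus strand) for ZNF30, chr19:34958754-34958837 (minus) for ZNF792, chr19:56664782-56664865 (minus) for ZNF835, chr19:19891767-19891850 (plus) for ZNF253, chr19:57979225-57979308 (minus) for ZNF606, chr19:20545597-20545680 (minus) for ZNF737, chr19:57291133-57291216 (plus) for ZNF460 and chr19:48286540-48286623 (plus) for ZNF114.
ZNF30: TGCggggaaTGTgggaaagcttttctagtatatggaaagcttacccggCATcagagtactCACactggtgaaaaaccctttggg
ZNF792: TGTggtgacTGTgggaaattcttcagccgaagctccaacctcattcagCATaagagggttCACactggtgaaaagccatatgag
ZNF835: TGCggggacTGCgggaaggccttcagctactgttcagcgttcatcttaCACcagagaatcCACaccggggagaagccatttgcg
ZNF253: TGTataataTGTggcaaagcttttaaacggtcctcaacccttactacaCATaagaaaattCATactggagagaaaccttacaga
ZNF606: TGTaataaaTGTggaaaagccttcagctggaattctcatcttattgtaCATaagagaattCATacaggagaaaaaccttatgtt
ZNF737: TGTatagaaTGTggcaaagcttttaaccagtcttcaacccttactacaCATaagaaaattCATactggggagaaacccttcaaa
ZNF460: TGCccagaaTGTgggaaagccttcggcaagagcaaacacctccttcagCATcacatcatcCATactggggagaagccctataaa
ZNF114: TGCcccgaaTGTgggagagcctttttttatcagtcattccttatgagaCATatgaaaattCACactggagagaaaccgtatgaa

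Over the 45 pairs among 10 members compared in this way, the stretches were identical at a median of 52 of 84 bases. ZNF253 and ZNF737, which lie in the same cluster, shared 75 of 84 bases (89.3%), the highest value among these pairs.

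Expression of most chromosome 19 ZNF genes was lower with EC359. Compared to control, 140 of the 234 tested genes were called lower and 30 higher (adjusted p-value under 0.05), and 64 were not called, by the quasi-likelihood test of edgeR with p-values adjusted over all genes after Benjamini and Hochberg. The lower genes made up 59.8% of the members, against 30.3% of all genes tested, and the higher genes 12.8%, against 30.8% of all genes. The median log2 fold change of the members was -0.42, against -0.20 for ZNF genes of other chromosomes and -0.01 for all genes. Of the 244 tested ZNF genes of other chromosomes, 117 (48%) were called lower and 47 (19.3%) higher. A 2-fold decrease was seen for 30 members, or 12.8%, compared to 2.79% of all genes, and a 2-fold increase for 2 members, compared to 4.19% of all genes. In 144 members all EC359 libraries lay under all control libraries, and in 31 they lay above, where all genes gave 32.3% and 32.4%.

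In the combination group 151 members were lower than in control (64.5%, against 34.7% of all genes) and 36 were higher (15.4%, against 35% of all genes), with 47 not called by the same test. Their median log2 fold change was -0.50, against -0.29 for ZNF genes of other chromosomes, of which 136 (55.7%) were called lower and 53 (21.7%) higher. At least a 2-fold decrease was found for 54 members (23.1%, against 5.87% of all genes), and at least a 2-fold increase for 5 (2.14%, against 7.27%). The combination libraries lay wholly under the controls in 145 members and wholly above in 38, where all genes gave 35.8% and 36%. Both comparisons use the same control libraries.

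Trametinib alone left the family near its control level. Compared to control, 10 members were lower (4.27%, against 15.2% of all genes) and 14 higher (5.98%, against 13% of all genes), and the median log2 fold change was 0.03. These small counts depended on single libraries, since 8 members were higher without control replicate 2 and 6 were lower without control replicate 3. With scaling by total counts alone they were 8 lower and 21 higher. ZNF792 was the member with at least a 2-fold decrease. The share of members called with trametinib varied with level, when members were split at the quartiles of level. From the lowest class to the highest, 1.69%, 1.72%, 3.45% and 10.2% were called lower. In the same order, 8.47%, 0%, 3.45% and 11.9% were called higher. The median level was 4.90 CPM for the members and 20.7 CPM for all genes tested. The part of expression level in the small share of calls was not tested.

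Most changes were of moderate size. With EC359, 3 members had a log2 fold change under -2, 28 between -2 and -1, 73 between -1 and -0.5 and 80 between -0.5 and 0, called or not. In the combination group these numbers were 8, 47, 63 and 59. With trametinib 95 lay between -0.5 and 0 and 130 between 0 and 0.5. Above 1 there were 2 members with EC359, 5 in the combination group and 0 with trametinib.

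**Figure D1:**
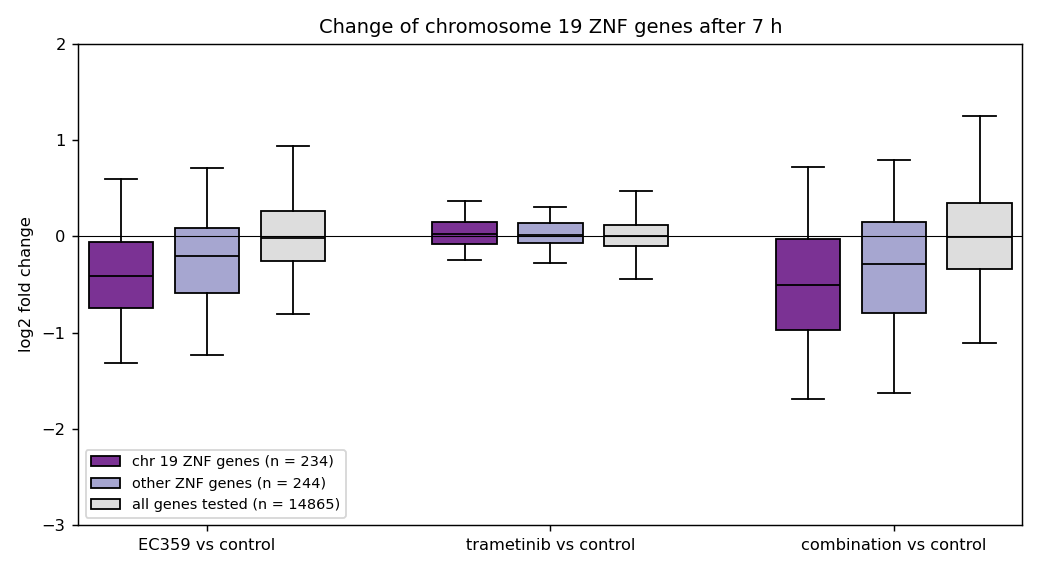
Log2 fold changes against control for the 234 chromosome 19 ZNF genes tested, the 244 ZNF genes tested on other chromosomes and all 14865 genes tested, for EC359, trametinib and the combination. Boxes span the quartiles with the median as a line, and whiskers reach the 5th and 95th percentiles. The chromosome 19 genes have medians of -0.42, 0.03 and -0.50, and the boxes of all genes are centred near 0.

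Summed over the members, expression was 2843 ± 50.1 CPM in control, 2433 ± 7.06 CPM with EC359, 2837 ± 18.8 CPM with trametinib and 2407 ± 32.6 CPM in the combination group (SD, n = 3 each). The EC359 libraries lay between 2425 and 2439 CPM and the combination libraries between 2375 and 2440 CPM. All of these were under the lowest control library at 2788 CPM. This sum weights abundant members most, among them ZNF542P, which fell and whose values are given below. The sum over ZNF genes of other chromosomes, which weights abundant genes most and does not follow the counts of calls above, was 4929 ± 41.8 CPM in control, 5112 ± 19.7 CPM with EC359 and 5034 ± 14.5 CPM in the combination group. Within single libraries, the median log2 deviation of the members from the control mean was -0.41, -0.42 and -0.40 with EC359 and -0.45, -0.50 and -0.49 in the combination group. It was 0.05, 0.00 and 0.05 with trametinib, and from -0.03 to 0.03 in the control libraries. The EC359 and combination libraries lay under the controls, and the trametinib libraries overlapped them.

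ZNF30 showed the largest decrease in the combination group. This KRAB gene with 16 fingers lies on chromosome 19 from 34926903 to 34945172 (hg38, plus strand). It was at 5.82, 5.14 and 5.62 CPM in control, 2.32, 1.41 and 1.46 CPM with EC359, 3.96, 4.29 and 3.83 CPM with trametinib, and 0.319, 0.522 and 0.676 CPM in the combination group. No library of one condition overlapped those of another, and the order was control, trametinib, EC359 and combination. The log2 fold change against control was -3.43 in the combination group (standard error 0.21, adjusted p = 3.4e-21) and -1.68 with EC359 (standard error 0.18, adjusted p = 3.9e-12) in the edgeR quasi-likelihood fit (Benjamini-Hochberg). The change with trametinib, -0.46, was called with all libraries but was lost without control replicate 1 or 3 or without trametinib replicate 1 or 3.

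ZNF792, the neighbour of ZNF30 on the opposite strand (34956354 to 34964049), followed a different order. Its libraries read 2.79, 3.04 and 3.47 CPM in control and 2.54, 2.69 and 3.15 CPM with EC359, which overlapped. With trametinib they fell to 1.16, 1.33 and 1.20 CPM, and in the combination group to 0.479, 0.261 and 0.526 CPM. The log2 fold change was -0.15 with EC359 (adjusted p = 0.5), -1.34 with trametinib (adjusted p = 2.6e-07) and -2.87 in the combination group (adjusted p = 5.6e-16) in the edgeR quasi-likelihood fit. ZNF792 fell most with trametinib among the members called, and only ZNF30 fell further in the combination group.

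ZNF835, a gene of 14 fingers without a recognised KRAB box, had the largest decrease with EC359. It read 2.18, 2.35 and 2.94 CPM in control, 0.380, 0.436 and 0.552 CPM with EC359, and 0.240, 0.410 and 0.413 CPM in the combination group. Its log2 fold change was -2.44 with EC359 (standard error 0.26) and -2.79 in the combination group (standard error 0.27), and the EC359 and combination libraries overlapped (log2 difference -0.35, adjusted p = 0.44 in the edgeR quasi-likelihood fit). Trametinib alone gave 2.12, 1.71 and 2.73 CPM, which overlapped the controls.

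ZNF253 and ZNF737 were the pair with the most similar finger among the members compared, with a single finger taken from each. Both were compared because of their large decreases in the combination group, so their shared fall there was fixed by that choice. ZNF253 read 5.25, 6.50 and 5.39 CPM in control, 1.31, 1.31 and 1.66 CPM with EC359 and 1.16, 1.01 and 0.526 CPM in the combination group. ZNF737 read 4.18, 4.44 and 4.09 CPM in control, 1.01, 0.974 and 1.14 CPM with EC359, and 0.559, 1.27 and 0.714 CPM in the combination group. Control and EC359 libraries were well apart for both genes. The log2 fold changes with EC359 were -2.0 for ZNF253 and -2.02 for ZNF737, and in the combination group -2.67 and -2.31. The values of ZNF253 were whole in 100% of libraries and those of ZNF737 in 91.7%. ZNF253 was also lower in the combination group than with EC359 alone (-0.67, adjusted p = 0.008 in the edgeR quasi-likelihood fit), a call that was lost without EC359 replicate 3 or combination replicate 3.

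ZNF606 and ZNF681 completed the 6 largest decreases with EC359 among members that averaged 2 CPM or more with control or EC359. Under that level ZNF441 (-1.88) and ZNF491 (-1.57) also fell. ZNF606, a KRAB gene near the long-arm end, read 3.78, 3.80 and 5.18 CPM in control, 1.52, 1.48 and 1.03 CPM with EC359 and 0.599, 0.708 and 1.13 CPM in the combination group. Its log2 fold changes were -1.66 and -2.38. ZNF681, in the same cluster as ZNF253, went from 5.82 ± 0.118 CPM in control to 2.01 ± 0.142 CPM with EC359 and 1.70 ± 0.515 CPM in the combination group (SD, n = 3 each), with log2 fold changes of -1.54 and -1.77.

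A minority of the family moved upwards. ZNF114, a KRAB gene with only 3 fingers, was among the members with the highest expression and read 57.0, 56.6 and 60.3 CPM in control, 179, 173 and 178 CPM with EC359, 62.5, 62.8 and 62.8 CPM with trametinib and 147, 148 and 151 CPM in the combination group. The combination libraries lay under the EC359 libraries and far above the controls. The log2 fold change was 1.61 with EC359 (standard error 0.03, adjusted p = 9.9e-45) and 1.36 in the combination group (standard error 0.03, adjusted p = 6.3e-41) in the edgeR quasi-likelihood fit. The values of ZNF114 were whole in 58.3% of libraries, so some of its reads were divided with other places or genes.

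ZNF460 rose from a low level, with 1.11, 0.856 and 1.44 CPM in control, 2.79, 2.48 and 3.35 CPM with EC359, 1.31, 1.67 and 1.10 CPM with trametinib and 4.63, 3.95 and 3.87 CPM in the combination group. Its log2 fold change was 1.33 with EC359 and 1.86 in the combination group, the largest increase of the family there. The difference between the combination and EC359 (0.53, adjusted p = 0.013 in the edgeR quasi-likelihood fit) was lost without EC359 replicate 2 or combination replicate 1. ZNF653 rose from 5.56 ± 0.621 CPM to 10.4 ± 1.17 CPM with EC359 and 12.2 ± 0.606 CPM in the combination group (SD, n = 3 each). ZNF836 was upregulated in all treated groups, from 1.56 ± 0.367 CPM to 2.84 ± 0.228 CPM with EC359, 2.62 ± 0.305 CPM with trametinib and 2.97 ± 0.163 CPM in the combination group (SD, n = 3 each).

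ZNF331, an imprinted gene at the distal end of its cluster (53520923 to 53580269), and ZNF823 rose stepwise. ZNF331 read 12.03, 13.2 and 12.6 CPM in control, 18.4, 17.1 and 17.9 CPM with EC359, 14.5, 16.1 and 14.7 CPM with trametinib and 28.2, 31.6 and 28.9 CPM in the combination group. The 4 conditions did not overlap. Its log2 fold change was 0.50 with EC359, 0.26 with trametinib and 1.23 in the combination group, all called in the edgeR quasi-likelihood fit. ZNF823 went from 6.83 ± 0.411 CPM in control to 11.0 ± 0.538 CPM with EC359 and 15.1 ± 0.702 CPM in the combination group (SD, n = 3 each).

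**Figure D2:**
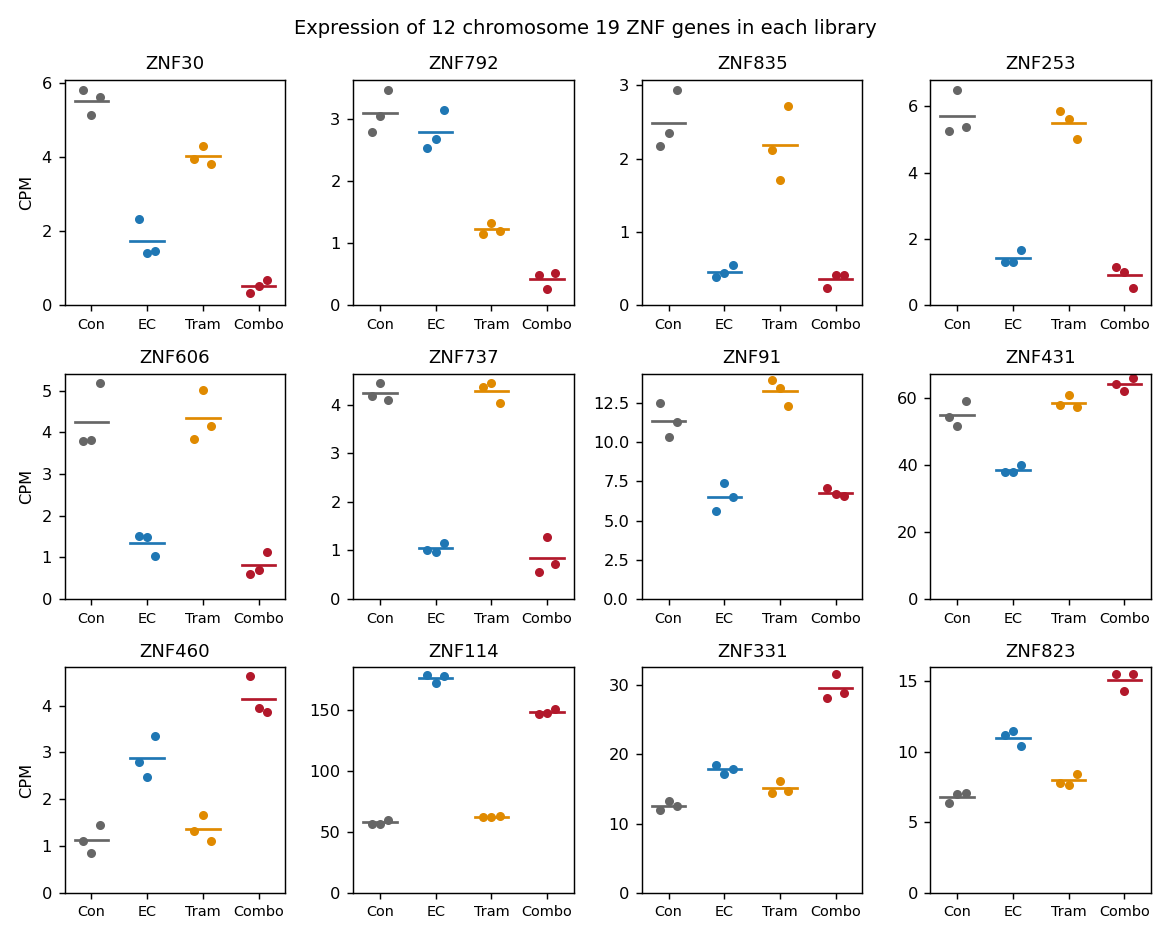
Expression (CPM) of 12 chromosome 19 ZNF genes in each of the 12 libraries, by condition (Con, control; EC, EC359; Tram, trametinib; Combo, combination). Points are libraries, horizontal lines are means of 3 libraries, and each vertical axis starts at 0. ZNF30 falls to 0.506 CPM and ZNF331 rises to 29.6 CPM in the combination group, and ZNF431 is low with EC359 alone.

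By expression per transcript length (RPKM), the 5 highest members were ZNF542P, ZNF114, ZNF699, ZNF146 and ZNF787. ZNF542P, a pseudogene by its symbol, fell from 323 ± 7.69 CPM in control to 172 ± 5.55 CPM with EC359 and 162 ± 4.53 CPM in the combination group (SD, n = 3 each), and its values were whole in 25% of libraries. ZNF699 fell from 106 ± 0.977 CPM to 52.7 ± 1.39 CPM with EC359 and 48.9 ± 0.350 CPM in the combination group. ZNF146, also called OZF, whose protein consists almost wholly of fingers, fell from 140 ± 1.23 CPM to 117 ± 1.59 and 95.1 ± 3.32 CPM. ZNF787 went the other way, from 54.0 ± 3.34 CPM to 70.3 ± 2.99 and 74.0 ± 4.35 CPM. Split at the quartiles of level, the classes had a median log2 fold change against control of -0.82, -0.47, -0.56 and -0.20 with the combination, from the lowest level to the highest, and 54.2% of the highest class were called lower and 33.9% higher, where all genes gave 34.7% and 35%.

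Several members have known roles. ZNF91 silences SVA elements and ZNF93 silences LINE-1 elements, and both fell. ZNF91 read 12.5, 10.3 and 11.3 CPM in control, 5.62, 7.42 and 6.50 CPM with EC359, 14.0, 13.5 and 12.3 CPM with trametinib and 7.11, 6.67 and 6.54 CPM in the combination group. The libraries with EC359, alone or combined, all lay under those without it. Its log2 fold change was -0.79 with EC359 (adjusted p = 2.5e-10) and -0.75 in the combination group (adjusted p = 9.5e-10) in the edgeR quasi-likelihood fit. ZNF93 went from 7.996 ± 0.552 CPM to 3.75 ± 0.544 and 4.07 ± 0.515 CPM (SD, n = 3 each), with log2 fold changes of -1.10 and -0.97. ZNF675 (TIZ), which binds TRAF6 and dampens its signaling, fell from 11.5 ± 0.695 CPM to 6.51 ± 0.470 and 5.84 ± 0.471 CPM.

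ZNF274, which brings SETDB1 to the 3′ ends of other zinc finger genes, fell less than the members above. It went from 28.2 ± 0.398 CPM in control to 24.9 ± 1.91 CPM with EC359 and 22.2 ± 0.997 CPM in the combination group (SD, n = 3 each). Its log2 fold change was -0.35 in the combination group and -0.19 with EC359, and the latter call was lost without EC359 replicate 2. ZNF350 (ZBRK1), a DNA-binding partner of BRCA1, was at 4.68 ± 0.268 CPM in control and 5.99 ± 0.700 CPM with EC359, a call (0.36, adjusted p = 0.012 in the edgeR quasi-likelihood fit) that was lost without control replicate 2, without EC359 replicate 2 or with scaling by total counts. ZNF420 (Apak), a repressor of p53 activity, was lower with EC359 (log2 fold change -0.35), which did not hold without control replicate 1, and it was at -0.02 in the combination group. ZNF649, a repressor of growth factor reporter signaling, was at 0.36 with EC359 (adjusted p = 0.063) and 0.38 in the combination group (adjusted p = 0.041), and the second call was lost with DESeq2, with scaling by total counts and when control replicate 2 or 3 or combination replicate 1 or 2 was left out.

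ZNF473, which takes part in the 3′ end processing of histone messenger RNA and is named here after its values were seen, rose. It read 29.1, 26.9 and 28.4 CPM in control, 44.4, 40.8 and 43.4 CPM with EC359, 25.8, 22.8 and 24.8 CPM with trametinib and 46.2, 43.6 and 42.5 CPM in the combination group. The libraries with EC359 were all above those without it. Its log2 fold change was 0.61 with EC359 and 0.65 in the combination group, and -0.20 with trametinib.

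Along the chromosome, members fell into 16 clusters when a gap of over 1 Mb started a new one. Of these, 7 held at least 10 tested members and 216 of the 234 in all. The deepest median among these 7 was in the cluster from ZNF101 to ZNF254 (19668153 to 24129967), which holds 32 members, ZNF91, ZNF253 and ZNF737 among them. In it all 28 tested members were below 0 with EC359, 23 (82.1%, against 30.3% of all genes) were called lower and none was called higher (30.8% of all genes), and the median change was -0.73 on the log2 scale. In the combination group the median was -0.77, with 20 lower (71.4%, against 34.7% of all genes) and 2 higher (7.14%, against 35%). The cluster nearest the long-arm end, from ZNF628 to ZNF446 (55476332 to 58489533), was the largest, with 58 tested members, 36 lower (62.1%) and 9 higher (15.5%) in the combination group and a median of -0.51.

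The other 5 clusters with 10 or more tested members had medians from -0.59 to -0.29 in the combination group. They were -0.29 from ZNF557 to ZNF846, -0.59 from ZNF653 to ZNF791, -0.30 from ZNF565 to ZNF573, -0.54 from ZNF575 to ZNF296 and -0.43 from ZNF175 to ZNF331. From ZNF565 to ZNF573, no member reached a 2-fold change in either direction, while 15 of 26 (57.7%, against 34.7% of all genes) were lower and 4 (15.4%, against 35%) higher. The member with the largest change there, ZNF585A, read 9.83 ± 0.367 CPM in control and 5.74 ± 0.552 CPM in the combination group (SD, n = 3 each), and ZNF567, nearest to the median, 6.96 ± 0.652 and 5.75 ± 0.180 CPM. Larger decreases were found in the others, with ZNF441 at -1.69 on the log2 scale, ZNF225 at -2.01, ZNF816 at -1.92 and ZNF558 at -1.24. Members nearest to their cluster's median were ZNF559 (-0.32), ZNF700 (-0.66), ZNF576 (-0.54), ZNF347 (-0.43) and ZNF324 (-0.51).

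The clusters with fewer tested genes had both the lowest and the highest medians, and the highest, 1.36 and 0.65, were those of single tested genes, ZNF114 and ZNF473. The 5 genes from ZNF302 to ZNF792 were all lower in the combination group, with a median of -1.44, and the 4 tested genes from ZNF554 to ZNF77 had the same median, with ZNF57 not called at 0.11. Genes between the members did not show the same pattern. The 113 tested non-ZNF genes inside the clusters had a median of -0.06 with EC359 and -0.07 in the combination group, with 40 lower (35.4%) and 41 higher (36.3%) in the latter, close to the 34.7% and 35% of all genes. The 838 tested chromosome 19 genes not named ZNF had medians of 0.05 and 0.10. No test was run between these classes.

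**Figure D3:**
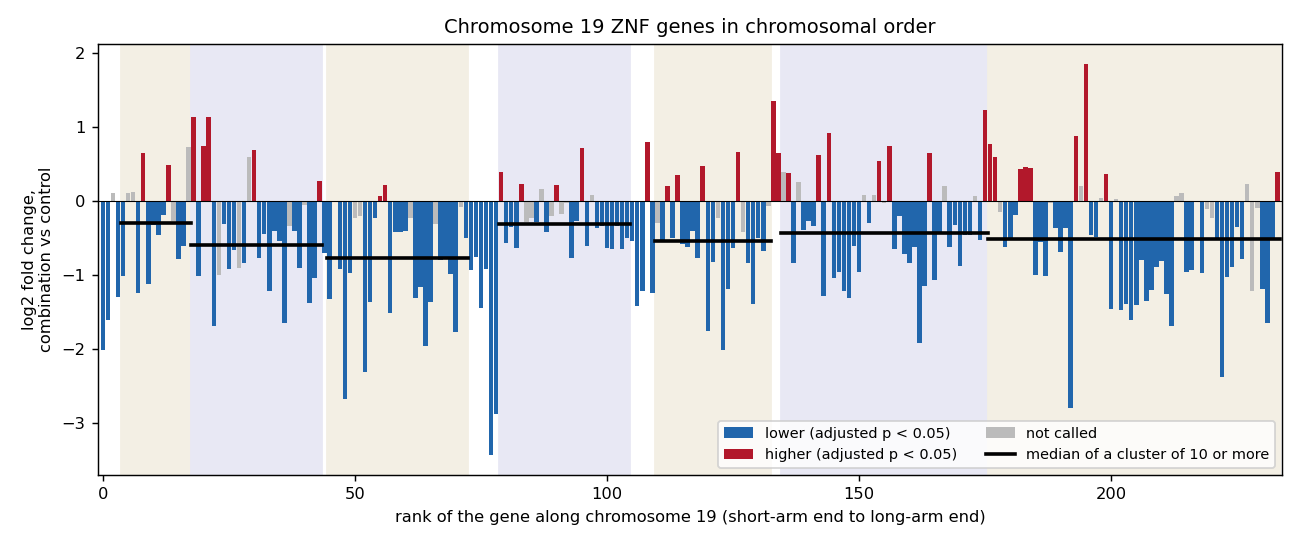
Log2 fold change of each of the 234 tested chromosome 19 ZNF genes for the combination against control, in chromosomal order (horizontal axis, rank of the gene). Blue bars are genes called lower and red bars genes called higher (adjusted p-value under 0.05), grey bars were not called, shading marks the 7 clusters with at least 10 tested genes, and black lines are their medians. The medians lie between -0.77 and -0.29, and higher genes are scattered among lower ones.

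Genes with a KRAB box had lower medians than genes without one, both on chromosome 19 and elsewhere, as a description without a test. With EC359, the median log2 fold change was -0.42 for the 195 tested members with a KRAB box and -0.28 for the 32 without one, and -0.32 for 116 KRAB genes and -0.10 for 122 other ZNF genes elsewhere in the genome. In the combination group the same 4 medians were -0.50, -0.23, -0.41 and -0.16. Of the KRAB members, 133 (68.2%) were lower and 26 (13.3%) higher in the combination group, and of the members without a KRAB box 13 (40.6%) were lower and 9 (28.1%) higher, where all genes gave 34.7% and 35%. Expression level differed between these classes. Under the median level of the members, the medians in the combination group were -0.70 for 103 KRAB genes and -0.41 for 10 genes without the box, and above it -0.40 for 92 and -0.06 for 22. With EC359 they were -0.55 and -0.58 under the median level, where the KRAB genes were not the lower ones, and -0.33 and -0.17 above it. The part of expression level in the difference was not tested.

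Finger number showed no such order. The median in the combination group was -0.34 for members with 0 to 8 fingers, -0.67 with 9 to 12, -0.52 with 13 to 16 and -0.42 with over 16. Exon number gave -0.55 for genes of up to 4 exon blocks, -0.46 for 5 or 6 and -0.44 for over 6.

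**Figure D4:**
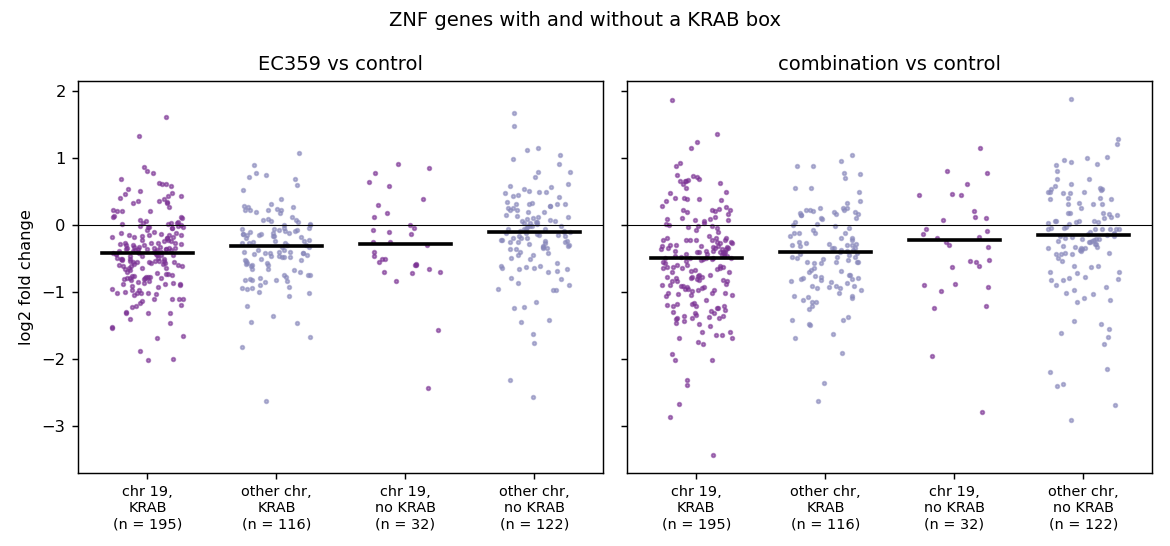
Log2 fold change against control of ZNF genes with and without a KRAB box, on chromosome 19 and on other chromosomes, for EC359 (left) and the combination (right). Each point is a gene, the horizontal shift is random, and black lines are medians. The medians in the combination group are -0.50 and -0.41 for KRAB genes and -0.23 and -0.16 for genes without the box.

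Other genes of the KRAB silencing pathway were read from a list of 40 symbols, of which 39 were in the tables and all 39 were tested (TASOR was listed only under its older symbol FAM208A). With EC359, 15 were lower and 15 higher (30.3% and 30.8% of all genes), with a median of 0.01. In the combination group 10 were lower and 17 higher (34.7% and 35% of all genes), with a median of 0.03. With trametinib 3 were lower and 3 higher (15.2% and 13% of all genes). TRIM28, the cofactor that the KRAB box binds, rose from 516 CPM in control to 579 CPM with EC359 and 699 CPM in the combination group (log2 fold changes 0.16 and 0.44). SETDB1 was at 20.7 CPM in control and 19.3 CPM in the combination group, which was not called (adjusted p = 0.17 in the edgeR quasi-likelihood fit). The HP1 genes CBX3 and CBX5 fell in the combination group, by 0.43 and 0.54 on the log2 scale, while the third HP1 gene CBX1 was called higher at 0.07. Among the other methyltransferases of the list SUV39H2 fell by 0.59, EHMT1 by 0.42 and SUV39H1 by 0.16, while DNMT1 rose by 0.15 and EHMT2 was not called. Among NuRD genes MTA2 fell by 0.55, whereas CHD3 (0.27), CHD4 (0.34), MTA1 (0.26), MTA3 (0.23), GATAD2A (0.29), GATAD2B (1.62), MBD2 (0.22) and MBD3 (0.13) rose and HDAC1, HDAC2, RBBP4 and RBBP7 were not called. GATAD2B was low and scattered, at 1.81 CPM in control and 4.551, 4.545 and 7.553 CPM in the combination libraries (standard error 0.37). ATRX and MORC3, which act in chromatin silencing, rose by 0.88 and 0.82.

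The combination was also compared with each single agent. Against EC359, 64 members were lower (27.4%, against 25.2% of all genes) and 29 higher (12.4%, against 24.1%), with a median of -0.10. Over all members called, the largest decreases were ZNF792 (-2.72), ZNF30 (-1.75), ZNF492 (-1.23), ZNF554 (-0.99) and ZNF816 (-0.91). Among members of at least 2 CPM in either group compared, with libraries apart, ZNF558 (-0.77) and ZNF578 (-0.77) followed ZNF792, and the largest increases were ZNF331 (0.73), ZNF431 (0.73) and ZNF714 (0.65). ZNF578 read 10.8, 10.3 and 13.1 CPM in control, 10.6, 8.96 and 10.6 CPM with EC359, 8.83, 9.34 and 10.8 CPM with trametinib and 6.03, 5.78 and 5.79 CPM in the combination group, so that only the combination libraries stood apart. Against trametinib, 153 members were lower (65.4%, against 32.9% of all genes) and 32 higher (13.7%, against 35.3%). Here 56 members fell at least 2-fold, against 5.48% of all genes, and 2 rose at least 2-fold, against 6.12%. ZNF30 (-2.97), ZNF253 (-2.61) and ZNF835 (-2.61) led the decreases and ZNF460 (1.61), ZNF114 (1.24) and ZNF331 (0.97) the increases.

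The interaction asks whether the combination differed from the sum of the log2 effects of both agents. It was lower than that sum in 37 members (15.8%, against 15.9% of all genes) and higher in 13 (5.56%, against 14.4%), in the edgeR quasi-likelihood fit (Benjamini-Hochberg). The share of lower members was that of all genes. With DESeq2 the counts were 23 and 7. ZNF792 (-1.38, standard error 0.32), ZNF30 (-1.29, standard error 0.29) and ZNF554 (-1.01, standard error 0.31) fell further in the combination group than the sum, as did ZNF492 (-1.27), which was under 2 CPM. ZNF554, a KRAB gene of the cluster nearest the short-arm end, read 2.93, 2.47 and 2.21 CPM in control, 1.18, 1.28 and 1.26 CPM with EC359, 2.62, 3.04 and 2.08 CPM with trametinib and 0.639, 0.596 and 0.639 CPM in the combination group.

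ZNF431 and ZNF714, neighbours in the cluster from ZNF101 to ZNF254, fell with EC359 alone and not in the combination group. ZNF431 read 54.2, 51.5 and 58.9 CPM in control, 38.6 ± 1.22 CPM (SD, n = 3) with EC359, where the libraries were close,, 57.8, 60.8 and 57.2 CPM with trametinib and 64.2, 62.0 and 65.8 CPM in the combination group. ZNF714 was at 151 ± 5.45 CPM in control, 101 ± 3.06 CPM with EC359, 168 ± 3.62 CPM with trametinib and 158 ± 7.62 CPM in the combination group (SD, n = 3 each). For both genes the EC359 libraries lay under all others. The interaction was 0.64 for ZNF431 and 0.49 for ZNF714. Their values were whole in 33.3% and 16.7% of libraries, so reads were divided between these genes and others. Among the 187 members with whole values, 2 had a higher interaction, against 13 of all 234 members and 14.4% of all genes tested. The part of divided reads or of expression level in this was not tested.

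With trametinib alone, the named decreases were ZNF792, ZNF702P and ZNF121 and the named increases ZNF836, ZNF610 and ZNF546. ZNF702P, a pseudogene by its symbol, read 19.1, 17.6 and 19.4 CPM in control, 12.3, 13.02 and 11.9 CPM with EC359, 9.99, 9.38 and 10.8 CPM with trametinib and 8.38, 9.35 and 7.59 CPM in the combination group. All treated libraries lay under the controls. ZNF121 went from 7.65 ± 0.948 CPM to 5.13 ± 0.600 CPM with trametinib (SD, n = 3 each, log2 fold change -0.58, adjusted p = 0.00011 in the edgeR quasi-likelihood fit). ZNF610 and ZNF546 rose with trametinib (0.59 and 0.56) and fell with EC359 (-1.29 and -0.80), and both trametinib calls were lost with DESeq2. They were also lost without control replicate 1, 2 or trametinib replicate 1 for ZNF610, and without control replicate 1 or 3 or trametinib replicate 2 or 3 for ZNF546.

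Promoter windows from RefSeq (GRCh38.p14, 250 bases before to 50 after each start) matched 209 of the 249 members, with 257 windows, and were searched on both strands for 8 short words. CCGGAA, the core of sites bound by ETS factors, was present in 49.4% of member windows, 38.6% of windows of other ZNF genes, 25.7% of windows of all genes tested and 17.2% of all 35116 promoter windows. Among members it was in 55.6% of windows of genes lower in the combination group, 39.1% of those of higher genes and 41.7% of those not called. Here the class not called also holds members that did not pass the filter on low counts and were not tested. GGGCGG, a GC box, was in 64.6% of member windows and 65.3% of those of all genes tested. TATAAA was in 2.72% against 6.32%, the E-box CACGTG in 4.67% against 9.15%, the AP-1 word TGACTCA in 2.33% against 3.61%, the CRE word TGACGTCA in 3.11% against 2.67%, the YY1 word AAGATGGC in 5.45% against 4.45% and the NRF1 word GCATGCGC in 4.67% against 4.55%. The words can overlap each other only at their ends, members with several starts have several windows, and a match is a description of the letters and not of binding.

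The 200 bases before the start are shown for 5 members that were lower (ZNF792, ZNF835, ZNF606, ZNF737 and ZNF91). They are also shown for 2 that were higher (ZNF460, with both of its starts, and the first start of ZNF331). Stretches with and without the words can thus be seen. In this order they lie at chr19:34964230-34964429 (minus), chr19:56671758-56671957 (minus), chr19:58002821-58003020 (minus), chr19:20565782-20565981 (minus), chr19:23395472-23395671 (minus), chr19:57279782-57279981 (plus), chr19:57280285-57280484 (plus) and chr19:53520814-53521013 (plus), run 5′ to 3′ on the gene's strand and are from RefSeq on GRCh38.p14. Capitals mark the words searched, TTCCGG being CCGGAA read on the other strand.
ZNF792: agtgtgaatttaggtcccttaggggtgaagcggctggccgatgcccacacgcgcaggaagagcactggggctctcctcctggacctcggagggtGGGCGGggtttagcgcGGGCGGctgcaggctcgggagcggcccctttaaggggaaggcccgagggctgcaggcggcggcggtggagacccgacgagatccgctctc
ZNF835: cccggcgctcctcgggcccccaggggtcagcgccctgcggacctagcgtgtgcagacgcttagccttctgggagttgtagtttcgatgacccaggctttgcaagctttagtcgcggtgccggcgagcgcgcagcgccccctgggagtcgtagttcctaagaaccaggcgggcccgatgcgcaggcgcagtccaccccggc
ZNF606: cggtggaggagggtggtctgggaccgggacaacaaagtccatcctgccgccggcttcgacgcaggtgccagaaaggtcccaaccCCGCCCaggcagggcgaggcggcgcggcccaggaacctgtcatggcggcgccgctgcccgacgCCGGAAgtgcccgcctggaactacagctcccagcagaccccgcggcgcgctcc
ZNF737: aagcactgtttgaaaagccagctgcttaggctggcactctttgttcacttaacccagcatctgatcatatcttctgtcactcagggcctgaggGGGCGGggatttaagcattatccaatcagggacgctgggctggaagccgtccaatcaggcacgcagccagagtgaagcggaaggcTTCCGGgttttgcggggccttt
ZNF91: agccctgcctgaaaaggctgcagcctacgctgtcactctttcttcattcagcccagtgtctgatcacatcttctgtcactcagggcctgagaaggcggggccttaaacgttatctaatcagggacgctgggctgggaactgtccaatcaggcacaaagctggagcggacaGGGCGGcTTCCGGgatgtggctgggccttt
ZNF460 (first start): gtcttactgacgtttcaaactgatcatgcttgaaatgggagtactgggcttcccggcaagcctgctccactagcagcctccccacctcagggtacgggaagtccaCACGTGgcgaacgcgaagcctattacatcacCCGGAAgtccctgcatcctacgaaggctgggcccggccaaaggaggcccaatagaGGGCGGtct
ZNF460 (second start): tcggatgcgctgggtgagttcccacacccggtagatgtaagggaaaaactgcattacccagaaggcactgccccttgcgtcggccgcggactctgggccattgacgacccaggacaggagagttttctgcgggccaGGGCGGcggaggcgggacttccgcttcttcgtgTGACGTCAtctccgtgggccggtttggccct
ZNF331: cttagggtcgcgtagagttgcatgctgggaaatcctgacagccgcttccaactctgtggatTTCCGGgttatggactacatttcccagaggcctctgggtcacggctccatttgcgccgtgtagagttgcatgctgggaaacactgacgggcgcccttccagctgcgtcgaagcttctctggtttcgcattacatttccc

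Within these 200 bases, ZNF835 holds none of the words and ZNF792 only GC boxes. The stretches of ZNF606, ZNF737 and ZNF91 hold CCGGAA and a GC box. Among the higher genes, the first stretch of ZNF331 and the first of ZNF460 hold CCGGAA. The second stretch of ZNF460, next to the start annotated in the count tables, holds TGACGTCA and a GC box. The other stretches of ZNF331, not shown, do not hold CCGGAA, and that of ZNF823, also higher, holds only GC boxes. The rest of each searched window, up to 250 bases before and 50 after the start, is not covered by these statements. No relation between words and changes was tested.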

How the data were processed

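RNA from 12 OVCAR8 libraries was measured. Per the file headers, the authors counted paired reads by strand (reverse-stranded, minimum mapping quality 2) over hg38 exons with featureCounts 1.5.0-p1, dividing reads with several placements or genes, and the deposited values are estimated counts (expected counts), not normalized. The submitters' processing notes name HISAT2, with a version not given in the sources used here. Divided reads make members with near-identical copies uncertain.

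Counts were rounded. In R 4.3.3, edgeR 4.0.16 fitted all 12 libraries together (filterByExpr with minimum count 10 and minimum total 15, TMM factors 0.947 to 1.06, robust quasi-likelihood test, Benjamini-Hochberg over 14865 genes), and calls had an adjusted p-value under 0.05. The study's methods name no count test. A count of 0 allows up to 3 counts, or 0.0924 to 0.121 CPM, for counting error only. Fingers were found by the spacing of their cysteines and histidines in translated GENCODE 29 transcripts, and KRAB boxes by a BLOSUM62 score of at least 50 against a consensus (lowest called 58, highest not called 40).

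Members and lists were chosen with earlier results of these data known. Named genes were the 6 largest decreases and 4 largest increases with EC359 and in the combination group, 3 each way elsewhere (at least 2 CPM, libraries apart except for the interaction), the 5 highest by RPKM, 8 with known roles, and 2 per large cluster. Alternatives were DESeq2 1.42.0, other scalings and filters, only the groups compared, a replicate block, each library left out, a 2-fold minimum, members with whole counts only, and no pseudogenes.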

Additional observations from a re-analysis of the deposited data

Results flagged for a closer look

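The effect of EC359 differed with and without trametinib, by the interaction term of edgeR's quasi-likelihood fit, in 37 members with a lower and 13 with a higher value than the sum of the single effects. These were 15.8% and 5.56% of the members, against 15.9% and 14.4% of all genes, so the share of lower members was at the background, and DESeq2 gave 23 and 7. Among the named members the interaction was -1.38 for ZNF792 (adjusted p = 0.00067), -1.29 for ZNF30 (adjusted p = 0.00036) and -1.01 for ZNF554 (adjusted p = 0.011). It was 0.64 for ZNF431 (adjusted p = 2.5e-12), 0.49 for ZNF714 (adjusted p = 1.8e-12) and 0.47 for ZNF331 (adjusted p = 6.2e-05).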

How the results depend on the processing

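Of 4841 recomputed values over 258 results, 4629 kept their direction and their side of the threshold, 132 lost a call, 64 gained one, 14 others moved and 2 reversed. The reversals came with scaling by total counts, at -0.07 for ZNF714 (combination against control) and -0.03 for ZNF431 (combination against trametinib), and that scaling shifted the median of all genes to -0.15 with EC359, -0.14 in the combination group and -0.16 against trametinib. The median of the members stayed between -0.55 and -0.40 with EC359 and between -0.64 and -0.48 in the combination group. With a 2-fold minimum, lower and higher members numbered 30 and 2 (EC359), 1 and 0 (trametinib), 54 and 5 (combination), 3 and 0 (combination against EC359), 56 and 2 (combination against trametinib) and 4 and 0 (interaction), fewer by construction. With trametinib, against EC359 and for the interaction, these lower members were 0.427%, 1.28% and 1.71% of those tested. All genes gave 0.955%, 1.55% and 0.686% lower and 0.478%, 1.69% and 0.881% higher at 2-fold. DESeq2 gave 8 higher with trametinib and 23 lower and 7 higher for the interaction, and the cause was not tested. With the 187 members of whole counts, fewer by construction, 5 were lower and 7 higher with trametinib, 17 were higher against EC359, and 2 had a higher interaction. Leaving out single libraries gave 6 to 11 lower and 8 to 14 higher members with trametinib, 136 to 152 and 32 to 36 in the combination group, 127 to 141 and 27 to 31 with EC359, and 27 to 37 and 9 to 13 for the interaction.

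The labels do not say whether same-numbered libraries of different groups were paired. Of 18 correlations of same-numbered libraries, 0 were over 0.1 (from -0.07 to 0.03), which cannot exclude a pairing. With the replicate block, 139 members were lower with EC359 and 148 in the combination group. Counts of low members limit single genes more than the family.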
